A study of Mus musculus with 2 samples.

Results

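The Cyp4 enzymes are membrane-bound cytochrome P450s that hydroxylate the last carbon of a fatty acid, the first step of omega oxidation. Alcohol and aldehyde dehydrogenases then turn the product into a dicarboxylic acid, which peroxisomes shorten. Several hepatic Cyp4a genes are classic targets of the nuclear receptor Ppara. The Cyp4a12 genes are expressed more in male than in female mouse liver, whereas Cyp4a10 and Cyp4a14 are higher in female liver. The transcripts of 8 of them, Cyp4a10, Cyp4a12a, Cyp4a12b, Cyp4a14, Cyp4a31, Cyp4a32, Cyp4f14 and Cyp4v3, were described in 1 liver section of a mouse on normal chow (NCD) and 1 of a mouse on a high-fat diet (HFD). The 8 genes were chosen by name out of 32285 in the table, with their measured levels in these sections already known, so that the values below are a description and carry no test.

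Both sections came from male C57BL/6J mice bought at 5 weeks of age, and 1 mouse per group was taken for spatial transcriptomics (ST). The HFD mouse was fed the D12492 high-fat diet and the NCD mouse ordinary chow for 14 weeks, and both then received a daily dose of distilled water by mouth for 8 weeks. The study's methods do not state the diet during these 8 weeks. Sections 10 µm thick were placed on Visium slides, whose barcoded spots each cover several cells, and molecules were counted as unique molecular identifiers (UMIs). The NCD section held 29037988 UMIs in 3692 spots over tissue and the HFD section 72118803 UMIs in 3594 spots, with medians of 4187.5 and 18549 UMIs per spot. With 1 section a group, diet, animal and section cannot be told apart, and every interval below is a 95% interval for counting error alone. In a spot, fewer cells of a type and less RNA per cell cannot be told apart either. Of the NCD spots, 840 held fewer than 1000 UMIs, against 4 in HFD, and the spots off tissue held a median of 3383 UMIs in NCD and 1175.5 in HFD. The labels name a haematopoietic stem cell, but 5 hepatocyte markers took 8.28% of the UMIs in NCD and 7.59% in HFD, whereas 4 haematopoietic stem cell markers reached 26.1 and 35.7 UMIs per 1000000 UMIs (CPM). Between the sections, the 4 red blood cell markers summed to 6676 CPM in NCD and 1246 CPM in HFD, the 5 B cell markers to 29.7 and 9.33 CPM and the 4 stellate cell markers to 45.3 and 133 CPM, and the part of these differences in the results below was not tested.

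The 6 Cyp4a genes lie in a cluster on chromosome 4, and some are close copies of each other, which bears on which gene a read is assigned to. Positions here and below follow the GENCODE M21 annotation of the mm10 genome. The coding sequences of Cyp4a12a and Cyp4a12b differed at 23 of 1527 bases, and their last 300 coding bases were the same. The 120 coding bases within 1 exon with the most differences between the pair are shown 5′ to 3′, with the 8 positions that differ in capitals.
Cyp4a12a, chr4:115326663-115326782, plus strand: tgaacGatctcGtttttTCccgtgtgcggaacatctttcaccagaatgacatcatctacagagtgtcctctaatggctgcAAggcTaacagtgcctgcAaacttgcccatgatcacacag
Cyp4a12b, chr4:115432916-115433035, plus strand: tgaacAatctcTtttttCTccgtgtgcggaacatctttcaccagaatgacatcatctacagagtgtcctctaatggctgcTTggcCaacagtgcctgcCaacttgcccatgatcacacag
Cyp4a10, Cyp4a31 and Cyp4a32 formed a second group of copies, with coding sequences 96.0% to 97.2% identical. Their last 120 coding bases, stop codon included, are shown with the 9 positions that differ within the trio in capitals.
Cyp4a10, chr4:115532580-115532699, plus strand: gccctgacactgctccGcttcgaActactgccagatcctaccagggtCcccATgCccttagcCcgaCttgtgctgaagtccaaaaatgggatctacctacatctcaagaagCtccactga
Cyp4a31, chr4:115577985-115578104, plus strand: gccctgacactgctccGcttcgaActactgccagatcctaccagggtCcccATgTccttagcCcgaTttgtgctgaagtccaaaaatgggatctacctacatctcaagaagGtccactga
Cyp4a32, chr4:115621483-115621602, plus strand: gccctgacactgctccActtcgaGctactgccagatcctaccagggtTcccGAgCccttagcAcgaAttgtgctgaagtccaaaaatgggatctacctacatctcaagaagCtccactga
Cyp4a31 differed from Cyp4a10 at 3 of these 120 bases and Cyp4a32 at 7. Visium reads come from the 3′ end of a transcript. Among the stretches of 90 bases in the last 500 bases of each transcript, none of Cyp4a10, Cyp4a14 or Cyp4a31 occurred in another gene (0% for each). For Cyp4a12a and Cyp4a12b 30.2% of the stretches were shared with each other, and for Cyp4a32 47.0% were shared with Cyp4a10 or Cyp4a31. Cyp4a32 is annotated without any bases after its coding part, so its counts and those of the Cyp4a12 pair are the least certain.

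Compared with the NCD section, transcripts of the Cyp4a genes were lower in the HFD section, with the largest relative difference for Cyp4a12b, whereas Cyp4v3 was slightly higher. Summed over the 8 genes, 3960 CPM were counted in NCD and 1463 CPM in HFD, a log2 difference of -1.44 (-1.45 to -1.42). Cyp4a32 aside, 7 of the genes reached 100 UMIs when both sections were added, of which 4 were lower in HFD by 2-fold or more and 0 were higher, while 2.06% of the 11913 genes with that many UMIs were that much lower and 10.8% that much higher. Since the genes were chosen with these values known, nothing is read from that share. The median log2 difference was -1.48 over the 7 genes and 0.24 over the 11913 genes.

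Cyp4a10 and Cyp4a14, both hydroxylases of medium- and long-chain fatty acids that Ppara induces, held most of these UMIs in each section. Cyp4a14 (chr4:115486200-115496142, minus strand) was counted at 2128 CPM in NCD (2111 to 2144) and 657 CPM in HFD (651 to 663). Cyp4a10 (chr4:115518264-115533649, plus strand) was counted at 1305 CPM in NCD (1292 to 1318) and 467 CPM in HFD (462 to 472). The levels were thus 3.24-fold and 2.80-fold lower in HFD, with counting intervals that lay far apart. After subtraction of the off-tissue profile the log2 difference of Cyp4a10 was -0.71 in place of -1.48, which is under 2-fold, and that of Cyp4a14 was -1.50 in place of -1.70. The subtraction took away most UMIs of NCD but a small part of those of HFD. Median UMIs per spot were 3383 off and 4187.5 over tissue in NCD, and 1175.5 and 18549 in HFD. Both transcripts were also plentiful among the UMIs off tissue, at 2241 CPM for Cyp4a14 and 1563 CPM for Cyp4a10 in NCD, and at 486 and 375 CPM in HFD. In NCD both thus stood above their levels over tissue. The spots off tissue lie in the same capture areas as the sections, so their gap is not a separate observation of the difference. Of the UMIs of the pair, Cyp4a10 took 38.0% in NCD (37.7 to 38.3) and 41.5% in HFD (41.2 to 41.9).

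The Cyp4a12 pair showed the widest gap between sections. Cyp4a12a (chr4:115299046-115332815, plus strand), the enzyme that hydroxylates the last carbon of arachidonic acid in male mice, was counted at 153 CPM in NCD and 34.1 CPM in HFD, 4.49-fold lower (4.27 to 4.72). Cyp4a12b (chr4:115411624-115439034, plus strand), its near-identical neighbour, was counted at 49.5 CPM in NCD (1438 UMIs) and 0.361 CPM in HFD (26 UMIs). Its level was 137-fold lower in HFD (93.4 to 211). Cyp4a12b therefore made up 24.5% of the UMIs of the pair in NCD (23.4 to 25.6) and 1.05% in HFD (0.685 to 1.53). With the transcripts of the pair so alike, the split rests on how reads were assigned, and no read could be followed back to its position from the count tables.

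The less studied copies Cyp4a31 and Cyp4a32 were counted at far fewer UMIs. Cyp4a31 (chr4:115563649-115579015, plus strand) went from 14.9 CPM in NCD (13.6 to 16.4) to 9.40 CPM in HFD (8.71 to 10.1), 1.59-fold lower. This direction turned once the profile of the spots off tissue was subtracted (log2 1.997), where Cyp4a31 stood at 21.1 CPM in NCD, above its level over tissue. Little of its 434 UMIs in NCD was left by the subtraction, so the turned value rests on few UMIs. Cyp4a32 (chr4:115600969-115621602, plus strand) was counted with 54 UMIs in NCD and 37 in HFD, or 1.86 and 0.513 CPM, which is under the minimum of 100 UMIs and was left out of the counts of genes.

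Outside the Cyp4a cluster the differences were smaller than those of Cyp4a10, Cyp4a14 and the Cyp4a12 pair. That of Cyp4f14 was larger than the 1.59-fold of Cyp4a31. Cyp4f14 (chr17:32905070-32917342, minus strand), which inactivates leukotrienes by the same reaction, was counted at 110 CPM in NCD (106 to 113) and 60.7 CPM in HFD (59.0 to 62.6), 1.80-fold lower. Cyp4v3 (chr8:45304944-45333216, minus strand), the mouse counterpart of the human fatty acid hydroxylase CYP4V2, was counted at 199 CPM in NCD (194 to 204) and 235 CPM in HFD (231 to 239). Its log2 difference of 0.24 was close to the median of 0.19 over the 6421 genes with at least 1000 UMIs, and centred on that median it was 0.05. Of the 8 genes, Cyp4v3 was the one with a higher level in HFD, and its log2 difference stayed above 0 under all 9 alternatives tried. After subtraction of the off-tissue profile Cyp4a31 was higher in HFD too.

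**Figure D1:**
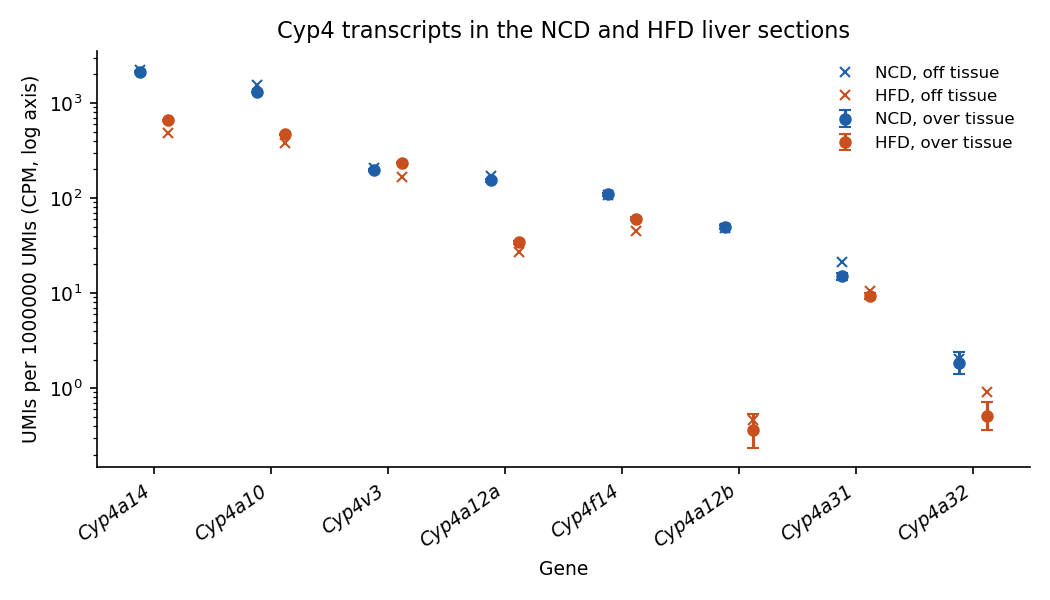
Level of each of the 8 Cyp4 genes in CPM (log axis) in the NCD section (blue) and the HFD section (orange), over tissue (points, with 95% counting intervals) and off tissue (crosses). The point for HFD lies below that for NCD in every gene except Cyp4v3, and Cyp4a12b drops from 49.5 to 0.361 CPM.

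To compare how many spots held each transcript, every spot was drawn down to 3000 UMIs, which left out 1585 NCD spots and 56 HFD spots with fewer. Cyp4a14 was then found in 99.3% of NCD spots (98.8 to 99.6) and 84.5% of HFD spots (83.2 to 85.7), and Cyp4a10 in 97.3% and 74.3%. Without drawing down, the deeper HFD section had the higher share for both, 99.1% against 89.0% for Cyp4a14 and 98.8% against 83.0% for Cyp4a10. The median spot held 6 UMIs of Cyp4a14 in NCD and 2 in HFD at that depth, and 4 and 1 UMIs of Cyp4a10. Cyp4a12a was found in 35.3% of NCD and 9.33% of HFD spots (46.3% and 41.8% undrawn), and Cyp4f14 in 28.8% and 15.7% (41.1% and 62.1% undrawn). Cyp4a12b was found in 14.6% of NCD spots and in 1 of 3538 HFD spots, or 25.2% and 0.640% of spots undrawn. Cyp4v3 was the exception, with 44.6% of NCD spots and 50.4% of HFD spots (53.3% and 93.8% undrawn). A spot share near 100% for Cyp4a14 is not a share of cells, since a spot covers several cells and transcripts were also found off tissue.

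Hepatocytes differ along the lobule from the central vein to the portal triad, and fatty acid and drug hydroxylation is mostly pericentral. Each spot with at least 20 UMIs of 6 pericentral and 6 periportal markers was therefore placed by the pericentral share of those UMIs, and the spots of each section were ranked and split into 5 equal bins, from bin 1, the most pericentral, to bin 5, the most periportal. The bins held 501 to 502 spots in NCD and 711 to 712 in HFD, and 1185 NCD and 35 HFD spots had no position. No Cyp4 gene was among the markers. The 6 pericentral and 5 periportal genes kept aside to check the order lay on their own side in both sections. Median depth varied between bins, from 6682 to 9889 UMIs per spot in NCD and from 14502 to 27714 in HFD, with the deepest HFD spots in the periportal bin.

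Most of the Cyp4 genes were pericentral in NCD, and the main Cyp4a genes were pericentral in both sections. Summed over the 8 genes, the level in NCD was 4715 CPM in the first bin and 3128 CPM in the last (log2 ratio 0.59, 0.56 to 0.62), and in HFD 1886 and 1124 CPM (0.75, 0.72 to 0.77). With every spot drawn down to 3000 UMIs and placed anew, the ratios of the sections came close, at 0.58 in NCD and 0.54 in HFD. Only 2015 NCD and 2794 HFD spots then had a position, set by fewer marker UMIs. Among undrawn spots with at least 3000 UMIs the ratios were 0.59 and 0.75. These spots kept their unequal depths, so that setting does not bear on depth. The part of depth in the slopes was not tested. In NCD 6 of the 8 genes were lower at every step from the first bin to the last, and in HFD 3 were. How many of all genes had such an order was not counted, so nothing is read from these numbers. Genes in general leaned to the pericentral side, with a median log2 ratio of 0.18 in NCD and 0.11 in HFD. The genes with a ratio of 2 or more toward the pericentral side were 2 of 7 with at least 100 UMIs in the end bins in NCD, where 2.95% of the 5871 genes counted had such a ratio and 1.38% had one toward the periportal side. In HFD they were 1 of 6, where 2.22% of 9924 genes had such a ratio and 1.91% the opposite one, and in both sections 0 Cyp4 genes had a ratio of 2 toward the periportal side.

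Cyp4a14 was counted at 2423, 2330, 2198, 1956 and 1721 CPM in the bins of NCD and at 890, 771, 697, 586 and 457 CPM in those of HFD. Its profile sloped more in HFD, with log2 ratios of the first to the last bin of 0.49 in NCD and 0.96 in HFD. The difference was 0.47 (0.41 to 0.52). The ratios were 0.48 and 0.68 with spots drawn down, and 0.49 and 0.96 among undrawn spots with at least 3000 UMIs. Cyp4a10 was counted at 1590, 1483, 1336, 1133 and 986 CPM in NCD and at 643, 539, 491, 410 and 329 CPM in HFD. Its log2 ratio was 0.69 in NCD and 0.97 in HFD, a difference of 0.28 (0.21 to 0.35). The ratios were 0.68 and 0.78 with spots drawn down, and 0.68 and 0.97 among undrawn spots with at least 3000 UMIs. The highest bin of HFD therefore stayed below the lowest bin of NCD for both genes.

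Cyp4a12a was more pericentral than Cyp4a10 and Cyp4a14 in both sections, except that in HFD with spots drawn down its log2 ratio of 0.73 lay below that of Cyp4a10 (0.78). Its level was 238, 183, 148, 110 and 97.8 CPM in the bins of NCD and 49.9, 47.9, 42.1, 29.0 and 13.9 CPM in those of HFD, with log2 ratios of 1.28 and 1.84. The ratio was wider in HFD (difference 0.56, 0.31 to 0.81), also among spots with at least 3000 UMIs (1.303 in NCD and 1.857 in HFD), but with every spot drawn down to 3000 UMIs it was 1.51 in NCD and 0.73 in HFD. Cyp4a12b was steeper still in NCD, at 93.8, 62.1, 41.4, 31.8 and 25.5 CPM (log2 ratio 1.88, 1.59 to 2.18), and its share of the Cyp4a12 pair went from 28.3% (26.1 to 30.5) in the first bin to 20.7% (17.5 to 24.2) in the last. In HFD its 3 to 7 UMIs per bin, 0.248 to 0.436 CPM, set no order.

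Cyp4f14 had opposite slopes in the 2 sections. In NCD it was counted at 127, 112, 107, 106 and 97.8 CPM from the first to the last bin, and in HFD at 51.9, 52.0, 57.6, 60.5 and 74.0 CPM. The log2 ratio of the first to the last bin was 0.38 in NCD (0.21 to 0.55) and -0.51 in HFD (-0.64 to -0.38), and each kept its sign under all 10 alternatives. The HFD level was thus 1.80-fold lower over the whole section but not evenly so, since the log2 difference between sections was -1.29 (-1.45 to -1.13) in the pericentral bin and -0.40 (-0.55 to -0.25) in the periportal bin. Cyp4a31 also leaned to the periportal side in HFD, with 6.74 CPM in the first bin and 13.4 CPM in the last (log2 -0.99, -1.35 to -0.64). In NCD its bins lay between 13.2 and 17.2 CPM with overlapping intervals (log2 0.08, -0.38 to 0.54), and in HFD the ratio was -0.11 once spots were drawn down. Its close copy Cyp4a10 ran the other way in HFD, so that Cyp4a31 made up 1.04% of the UMIs of the 2 genes in the first bin (0.837 to 1.27) and 3.90% in the last (3.46 to 4.39).

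Cyp4v3 varied little along the lobule. It was counted at 223, 211, 191, 191 and 182 CPM in the bins of NCD (log2 ratio 0.29, 0.16 to 0.42) and at 244, 236, 234, 225 and 236 CPM in those of HFD (0.04, -0.02 to 0.11). In NCD the ratio was 0.00 with spots drawn down. For Cyp4a32, 9 to 12 UMIs per bin in NCD and 4 to 11 in HFD set no order.

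**Figure D2:**
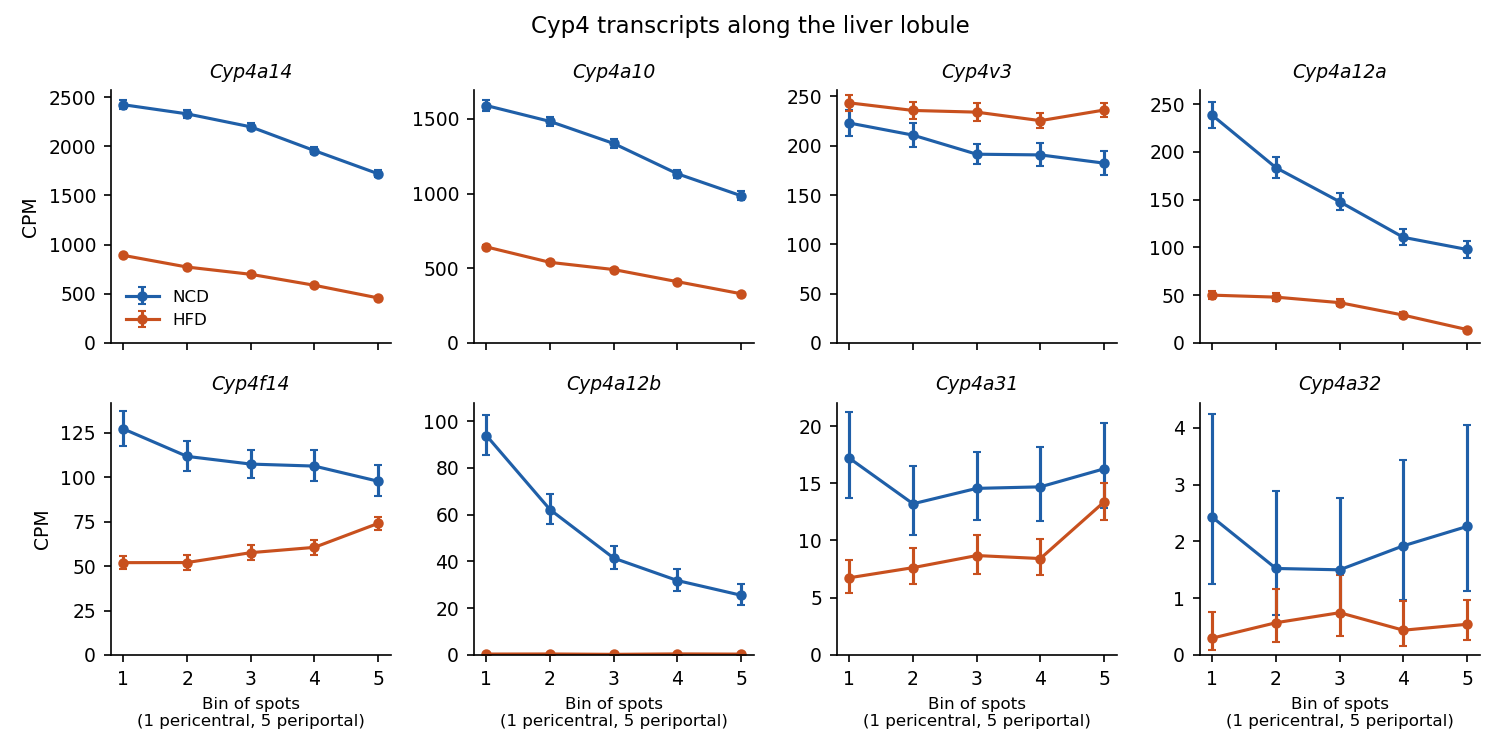
Level of each gene in CPM (linear axes from 0, a scale for each gene) in the bins of spots from pericentral (1) to periportal (5), in NCD (blue) and HFD (orange), with 95% counting intervals. Cyp4a14, Cyp4a10 and Cyp4a12a slope down in both sections, and Cyp4f14 slopes down in NCD and up in HFD.

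**Figure D3:**
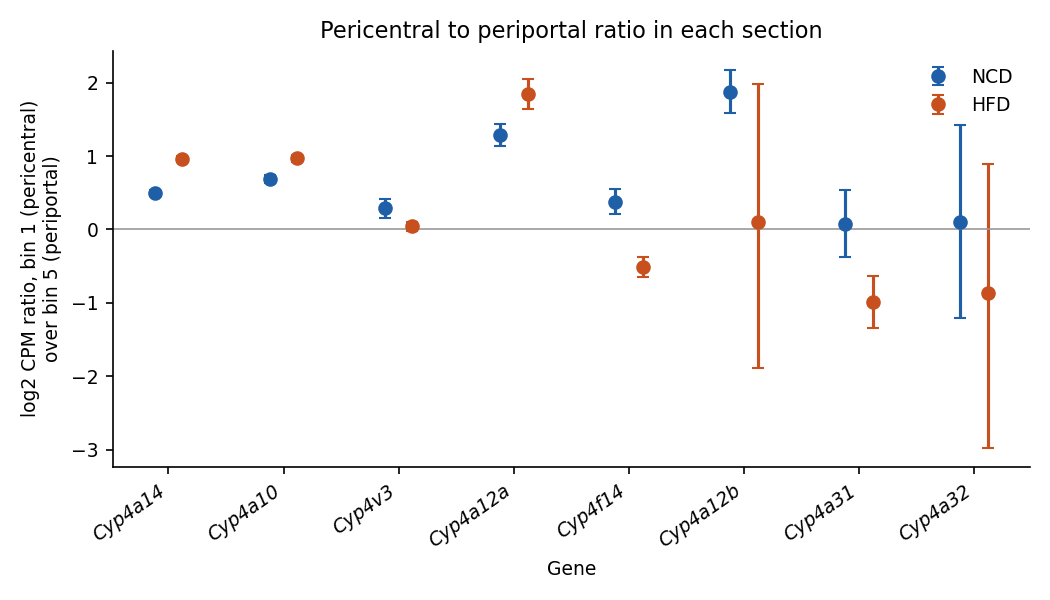
Log2 ratio of the level in the pericentral bin to that in the periportal bin for each gene in NCD (blue) and HFD (orange), with 95% counting intervals. Points above 0 are pericentral, and the intervals of Cyp4f14 lie on opposite sides of 0 in the 2 sections, at 0.38 and -0.51.

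Lipid droplet transcripts were higher in HFD, and spots were also ranked by the share of 6 droplet genes. In HFD the 8 Cyp4 genes together went from 1737 CPM in the bin with the most droplet transcripts to 1189 CPM in the bin with the fewest (log2 0.55, 0.52 to 0.57). The ratio was highest for Cyp4a12a, at 46.6 against 17.4 CPM (log2 1.42), and was 0.70 for Cyp4a14 and 0.63 for Cyp4a10, while Cyp4f14 (-0.34) and Cyp4a31 (-0.61) ran the other way. The droplet genes themselves were pericentral in HFD, 4 of 6 by 2-fold or more, against 2.22% of all genes. Among the spots of the pericentral bin alone, the droplet ratio of the 8 Cyp4 genes together was 0.10. It was 0.11 for Cyp4a14, -0.02 for Cyp4a10 and 0.42 for Cyp4a12a. This split was added after the data were seen. In NCD the ratio of the 8 genes together was 0.13, and it was -0.03 when Plin2 was left out of the droplet genes. The NCD bin with the fewest droplet transcripts held 0 of their UMIs and a median of 627 UMIs per spot, against 2436 in the bin with the most and 10557.5 in the middle bin, so depth differed with the rank.

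Most other genes of the pathway differed between the sections by less than 2-fold. Of 12 further Cyp4 genes, 6 had at least 100 UMIs, with 1 higher by 2-fold or more and 0 lower. Among all 11913 genes with that many UMIs 10.8% were that much higher and 2.06% that much lower, the shares beside which all list counts stand. Cyp4f15 and Cyp4f13, relatives of Cyp4f14, were at 79.6 and 46.5 CPM in NCD and 93.9 and 34.4 CPM in HFD. Cyp4f18, a leukotriene hydroxylase of myeloid cells, went from 0.792 CPM (23 UMIs) to 2.95 CPM (213 UMIs). It was the 1 gene counted as higher, and it reached 100 UMIs through HFD alone. None of the 4 electron donors passed 2-fold, with Por, the reductase that feeds electrons to every microsomal P450, at 434 CPM in NCD and 251 CPM in HFD (log2 -0.79). Por was itself pericentral, with log2 ratios of 1.36 in NCD and 1.24 in HFD.

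In the steps after hydroxylation, 1 of 5 genes was higher and 1 lower by 2-fold or more. Aldh3a2, the fatty aldehyde dehydrogenase, was counted at 269 CPM in NCD and 557 CPM in HFD (log2 1.05), and the alcohol dehydrogenase Adh7 at 7.51 and 3.20 CPM. Of 13 peroxisomal genes for dicarboxylic acids, 2 were higher by 2-fold or more and 0 were lower, against 10.8% and 2.06% of all genes. The peroxisomal thiolase Acaa1b was at 1707 CPM in NCD and 2554 CPM in HFD. The median log2 difference of the list was 0.20, near that of all genes.

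The Ppara list held 20 genes, the receptor and its targets without the Cyp4a genes. Of these, 3 were higher by 2-fold or more in HFD and 0 were lower, against 10.8% and 2.06% of all genes. The median log2 difference of the list was 0.19, against 0.24 for all genes. Vnn1 (1.22), the peroxisome division factor Pex11a (1.06) and the hormone Fgf21 (2.21) were the 3. Ppara itself was at 13.5 CPM in NCD and 15.0 CPM in HFD. Those 4 were named after their values were seen. Of the most abundant genes of the list, Fabp1, the liver fatty acid binding protein, was at 9740 CPM in NCD and 11475 CPM in HFD, and the thiolase Acaa2 at 1141 and 894 CPM.

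Male-biased liver genes were, like the Cyp4a12 genes, mostly lower in HFD. Cyp4a10 and Cyp4a14, which are higher in female liver, were lower in HFD too, and a link to sex bias was not tested. Of 11 male-biased genes 10 had at least 100 UMIs, with a median log2 difference of -2.20. Of the 10, 7 were lower in HFD by 2-fold or more and 0 were higher, against 2.06% and 10.8% of all genes. Cyp7b1, an oxysterol hydroxylase, went from 190 to 36.2 CPM, the fatty acid elongase Elovl3 from 194 to 38.7 CPM and Cyp2d9 from 1253 to 297 CPM. The steroid enzyme Hsd3b5, named after its values were seen, went from 61.4 CPM (1783 UMIs) to 0.0832 CPM (6 UMIs) and the transporter Slco1a1 from 128 CPM to 0.194 CPM (14 UMIs), gaps of the kind seen for Cyp4a12b. Mup20, a major urinary protein, ran the other way, from 6542 to 11370 CPM. Of 13 female-biased genes only 5 had at least 100 UMIs, of which 4 were higher by 2-fold or more and 0 lower, and some of these reached that minimum through their UMIs in HFD alone. Among them Cyp2b9 went from 2.96 to 166 CPM, and Cyp2b13 from 0 UMIs to 20.2 CPM, at least 196-fold higher when the NCD section is set at 3 UMIs. Both mice were male per the study's methods.

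**Figure D4:**
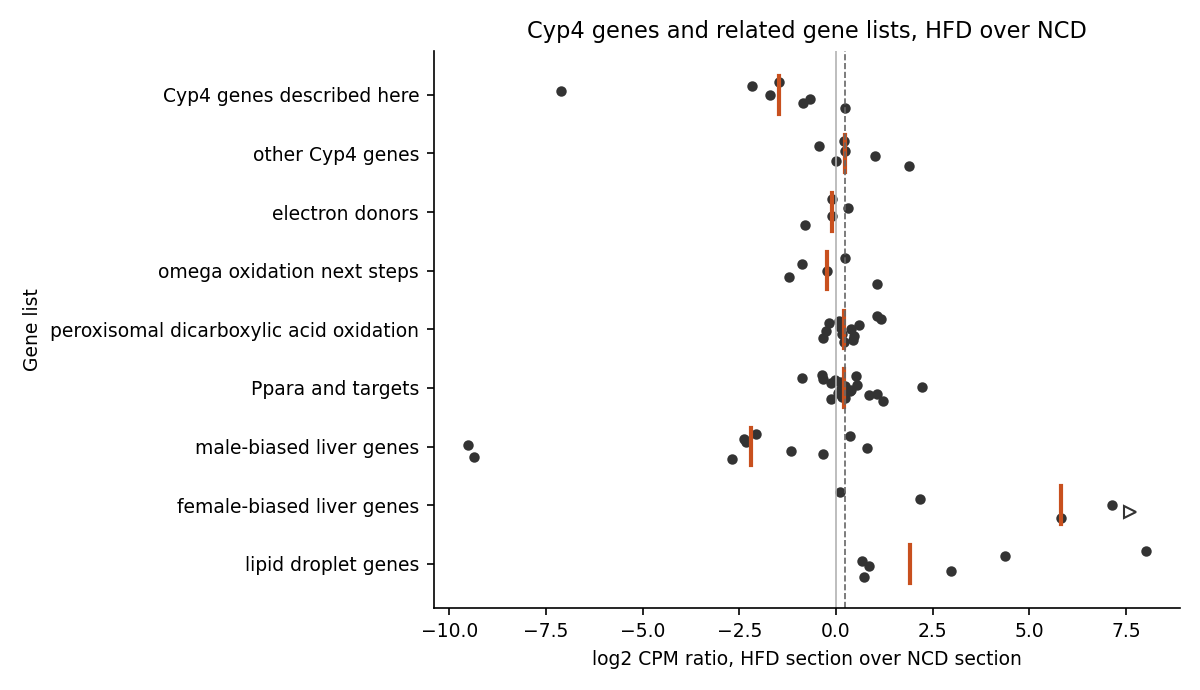
Log2 ratio of CPM in the HFD section to CPM in the NCD section for each gene with 100 UMIs or more in all, by list (points), with the median of each list (orange bar), the median of all genes at 0.24 (dashed line) and Cyp2b13 at its lower bound (open triangle). The Cyp4 genes described here and the male-biased genes lie mostly to the left, and the Ppara list is centred near the dashed line.

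The genes whose pattern was most like that of each Cyp4 gene were taken by Pearson r of log2(CPM + 1) over the 10 groups of section and bin, among 6422 genes with at least 1000 UMIs. These 10 points fall into the 2 sections, and r describes mainly the step between them. Cyp7b1 stood nearest to both Cyp4a10 (r = 0.999) and Cyp4a14 (0.997), followed by Cyp4a14 (0.995) for Cyp4a10 and by Mup10 (0.996) for Cyp4a14. Cyp4a12b was nearest to Ugt2a3 and Hsd3b5 (0.996 each), Cyp4a12a to Pttg1 (0.996), Cyp4a31 to Prdx4 (0.968), Cyp4f14 to the coagulation factor F2 (0.995) and to Plg (0.993), and Cyp4v3 to Pex6 (0.987). At the level of single spots drawn down to 3000 UMIs, the highest rank correlation among 5 of the genes was that of Cyp4a10 with Cyp4a14, at 0.12 over 2107 NCD spots and 0.14 over 3538 HFD spots, which in counts this sparse is no finding.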

How the data were processed

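One liver section per group was measured by 10x Visium. Per the file headers the authors made the UMI count tables with Space Ranger 1.3.1, and mm10 is given in the submitters' processing notes. The deposited counts were used as given, for spots over tissue (filtered tables) and, by difference from the raw tables, off tissue. The 8 genes, the gene lists and the zonal markers were chosen with earlier results of these data known. Named from each list were at most 6 genes, most abundant first, each with at least 100 UMIs, and any other is marked in the text. Levels are UMIs per 1000000 UMIs of the pooled spots (CPM), with no division by transcript length. Where genes are set against each other, as in the shares of a pair, the values are of UMIs counted. Intervals (95%) are exact Poisson for levels, exact conditional binomial for ratios and Clopper-Pearson for shares, except that the difference of 2 log2 ratios has a normal interval, and all cover counting error only. A 0 count was set at 3 UMIs for a bound. No test across groups was possible with 1 section each. Functions were tested on simulated data. Python 3.11.15, numpy 2.4.6 and scipy 1.17.1 were used. Alternatives covered scaling, depth, spots and position. Tissue images were not analysed here. Some genes of the lists are counted but not reported here by name.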

Additional observations from a re-analysis of the deposited data

Results flagged for a closer look

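Of the 8 genes, 3 had a pericentral to periportal log2 ratio of opposite sign in the NCD and HFD sections. Only for Cyp4f14 did both counting intervals leave out 0. How many of all genes had opposite signs was not counted, and with 1 section a group the difference was not tested over samples. For Cyp4f14 the ratio was 0.38 in NCD and -0.51 in HFD, with counting intervals that lay on opposite sides of 0. For Cyp4a31 it was 0.08 in NCD, with an interval that held 0, and -0.99 in HFD, or -0.11 in HFD with spots drawn down. For Cyp4a32 it was 0.10 in NCD and -0.87 in HFD, from 23 and 15 UMIs, and both intervals held 0.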

How the results depend on the processing

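Over the 8 genes together, the log2 difference between HFD and NCD (-1.44) kept its sign under all 9 alternatives. It was -1.37 as the mean of single spots, -1.46 with mitochondrial and the 20 most abundant genes left out of the total, -1.47 over spots on and off tissue from 1000 UMIs up, -1.39 with spots drawn down to 3000 UMIs, -1.07 after subtraction of the off-tissue profile and -1.63 centred on the median gene. Subtraction also turned Cyp4a31 to 1.997, with few of its NCD UMIs left, and took Cyp4a10 from -1.48 to -0.71. The number of genes 2-fold lower (4) was 3 to 5 under the alternatives, and 6 genes were lower by 1.5-fold. Removing the 1% of spots with the most UMIs left Cyp4a12b no UMI in HFD and hence no value. The pericentral to periportal log2 ratio of the 8 genes kept its sign under all 10 alternatives in each section. In NCD (0.59) it was 0.49 in 3 bins, 0.56 without Cyp2e1 as marker, 0.63 as the mean of single spots and 0.47 without the most abundant genes. In HFD (0.75) those values were 0.61, 0.66, 0.70 and 0.69, and it was 0.67 by z-score and 0.54 with spots drawn down. The number of genes 2-fold pericentral went in NCD from 2 to 1 with a minimum of 1000 UMIs, and in HFD from 1 to 0 with that minimum, to 0 drawn down and to 3 at 1.5-fold. For the droplet bins in NCD (0.13), the ratio of the 8 genes was -0.033 without Plin2 (Cyp4a14 -0.0037) and 0.027 drawn down. In HFD (0.55) it was 0.62 without Plin2, 0.25 drawn down and 0.10 within the pericentral bin, where Cyp4a10 was -0.017 and Cyp4a31 0.43. The last 2 settings were chosen after seeing the data, and the cause of these changes was not tested. No paired analysis was possible because each group held 1 section. The UMIs of Cyp4a32 in both sections and of Cyp4a12b in HFD were too few for an order along the lobule.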
